A study of Mus musculus with 15 samples.

Results

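The genes described here are the SLAM (signalling lymphocytic activation molecule) family receptors Slamf1, Slamf6, Slamf7, Cd84 and Ly9, the related surface protein gene Cd48, and Sh2d1a, which encodes SAP, the adaptor of these receptors. They were chosen by symbol, each through its brightest probe set on a mouse Affymetrix array, and are 7 of the 19938 genes that the platform annotation names with a single symbol. All 7 were found, with 1 probe set each, and all 7 are among the 10964 genes bright enough to be tested. The arrays hold RNA of CD4+CD25+ cells sorted from mouse spleen, a fraction the labels name Treg (regulatory T) cells. The genotypes are wild type (WT, 6 arrays), Ikzf2-/- (3 arrays, lacking Helios), Ikzf4-/- (3 arrays, lacking Eos) and dKO (3 arrays, lacking both); both belong to the Ikaros family of DNA-binding zinc finger proteins. The labels give neither the age, sex or strain of the mice nor how the alleles were made, and no treatment. Judged from array numbering and values, WT 1 to 3 were normalized together with Ikzf4-/- and dKO, and WT 4 to 6 with Ikzf2-/-. WT arrays of the same set therefore served as the reference of each knockout, and dKO was also compared with Ikzf4-/-.

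SLAM receptors are immunoglobulin superfamily proteins on blood cells. Most bind the same protein on a neighbouring cell, and their tyrosine switch motifs recruit SAP, which brings in the kinase Fyn and keeps inhibitory phosphatases away. In CD4 T cells this pathway is known for the long contacts with B cells that follicular help needs, and for the development of innate-like T cells. CD48 is the exception in form: it is anchored by a lipid, has no cytoplasmic tail, and serves as a ligand of 2B4 (gene Cd244a) and of CD2.

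The receptor genes and Cd48 stand side by side in the genome. In the gene order of RefSeq (GRCm38.p6) 6 of the 7 genes lie on chromosome 1 in the order Ly9, Slamf7, Cd48, Slamf1, Cd84 and Slamf6, while Sh2d1a lies on chromosome X. Ikzf2 is also on chromosome 1, with 657 protein-coding genes between it and the cluster. The promoters of Slamf6 and Cd48, the pair whose levels ran most alike over the arrays, and of Slamf1 follow as RefSeq gives them, from 250 bases before to 50 after the gene start, on the strand of the gene. Capitals mark TGGGAA, the core bound by Ikaros family proteins, or its reverse complement TTCCCA.
Slamf6, chr1:171917212-171917511, plus strand: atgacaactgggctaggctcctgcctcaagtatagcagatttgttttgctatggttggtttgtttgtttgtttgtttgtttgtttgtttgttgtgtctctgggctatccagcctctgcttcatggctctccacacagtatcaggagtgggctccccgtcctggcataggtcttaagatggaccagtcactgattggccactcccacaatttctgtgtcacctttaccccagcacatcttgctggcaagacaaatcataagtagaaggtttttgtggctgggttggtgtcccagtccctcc
Cd48, chr1:171681742-171682041, plus strand: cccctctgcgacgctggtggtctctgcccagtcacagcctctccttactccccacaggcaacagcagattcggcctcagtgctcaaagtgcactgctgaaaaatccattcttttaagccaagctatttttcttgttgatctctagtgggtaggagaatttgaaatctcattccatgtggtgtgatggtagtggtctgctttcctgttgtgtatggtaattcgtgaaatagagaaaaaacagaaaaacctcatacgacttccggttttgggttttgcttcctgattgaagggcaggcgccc
Slamf1, chr1:171766882-171767181, plus strand: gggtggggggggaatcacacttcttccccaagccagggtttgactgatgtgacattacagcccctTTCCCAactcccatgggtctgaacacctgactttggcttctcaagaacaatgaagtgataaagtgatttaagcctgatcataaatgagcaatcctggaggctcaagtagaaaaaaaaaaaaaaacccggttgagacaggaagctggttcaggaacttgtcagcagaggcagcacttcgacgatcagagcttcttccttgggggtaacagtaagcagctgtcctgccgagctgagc
Of the 5 members with a promoter in the table (Slamf7, Cd48, Slamf1, Cd84 and Slamf6), 1 holds TGGGAA on either strand, Slamf1, on the minus strand with its run starting at position -185 from the gene start. For comparison, 25.6% of 32851 promoters of the same length hold it. A match is a description of these letters and not of binding.

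The values are log2 signals, so a difference of 1 is a doubling, and their height depends on each probe set's probes, so levels are compared between arrays and not between genes. Array medians over all probe sets ran from 4.82 to 5.01, and the number of arrays limits the precision. As a check of the labels, Ikzf2 had a signal of 9.47 ± 0.51 (SD, n = 3) in Ikzf2-/- and 10.33 ± 0.07 (SD, n = 3) in WT 4 to 6 (limma, adjusted p = 0.0880), and 10.29 ± 0.27 (SD, n = 3) in dKO and 10.65 ± 0.17 (SD, n = 3) in WT 1 to 3 (limma, adjusted p = 1). For Ikzf2, the array labelled dKO 3 (10.59) fell inside the WT 1 to 3 range of 10.46 to 10.76, so its signal does not show the loss its label names. The arrays dKO 1 and dKO 2 read 10.11 and 10.16. In the other set Ikzf2-/- 1 read 10.06, nearer to the lowest WT 4 to 6 array (10.25) than to Ikzf2-/- 2 (9.145) and Ikzf2-/- 3 (9.22). Whether the Ikzf2 probe set lies in the deleted part was not determined here. Why the array labelled dKO 3 read higher than dKO 1 and dKO 2 was not tested, and neither was a wrong label. Ikzf4 was not lower in either genotype that lacks it (8.18 ± 0.05 (SD, n = 3) in Ikzf4-/- and 8.13 ± 0.07 (SD, n = 3) in dKO against 7.97 ± 0.12 (SD, n = 3) in WT 1 to 3), and whether its probe set lies in the deleted part was not determined here. The Treg markers Foxp3, Il2ra, Ctla4, Tnfrsf18, Ikzf2, Cd4 and Cd3e were all tested, and their mean signal per array lay between 9.75 and 10.75. This mean includes Ikzf2, the gene that Ikzf2-/- and dKO lack. Some arrays stand apart: WT 1 and Ikzf2-/- 3 had B cell marker means of 6.47 and 7.44 (over the 11 markers tested). These means were 4.36 to 4.47 on the other arrays of the set of WT 1. They were 4.95 to 5.13 in WT 4 to 6, and 5.56 and 4.86 on the Ikzf2-/- arrays 1 and 2. Neutrophil marker means (7 of 8 tested, Ly6g not tested) were 7.23 on WT 1 and 4.45 to 5.97 on the other arrays of its set, and 6.91, 6.32 and 9.09 in Ikzf2-/- against 5.68, 5.20 and 5.86 in WT 4 to 6, so all 3 Ikzf2-/- arrays lay above all 3 WT arrays. The median standard deviation of a gene was 0.19 in Ikzf2-/- and between 0.092 and 0.11 in the other groups. The limma fit used here pools the spread over all groups, so it may understate that of Ikzf2-/-. In such sorted pools, fewer cells of a type and less RNA per cell cannot be told apart. The labels do not say whether the arrays of a group come from different mice, and the p-values therefore reflect only array-to-array spread, which may be technical in part; in WT 1 to 3, Ikzf4-/- and dKO the arrays of a group differ in the Y-linked gene Eif2s3y, so they do not all hold RNA of the same mice.

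None of the 7 genes, SLAM receptors or adaptor, passed the threshold of adjusted p 0.05 in any comparison. Of the 10964 genes tested with limma, 0.0638% passed in Ikzf2-/- against WT, 0% in Ikzf4-/- against WT, 0.0638% in dKO against WT, 0.0274% in dKO against Ikzf4-/-, and 0% in the test of whether the Ikzf2 effect differs with and without Ikzf4. At an unadjusted p under 0.05, 1 member was lower (Cd84) in Ikzf2-/- against WT, where 10.9% of all genes were higher and 5.45% lower by that rule. In Ikzf4-/- against WT 0 members met it (1.16% of all genes higher, 1.02% lower). In dKO against WT 2 were higher, Slamf6 and Cd48 (2.39% higher, 1.99% lower). In dKO against Ikzf4-/- 1 was higher, Slamf6, and 1 lower, Slamf7 (1.79% higher, 1.69% lower). With the replicate number as a block (arrays of the same number deviated together between Ikzf4-/- and dKO, but not for every number between WT and dKO), Slamf7 joined as lower in dKO against WT (4.82% of all genes higher and 3.58% lower in that fit) and Sh2d1a as higher in dKO against Ikzf4-/- (3.98% higher and 3.1% lower). In the test of the difference between the steps 0 met it (1.81% higher, 4.49% lower). The median log2 difference of the 7 genes was -0.016, 0.068, 0.065 and 0.10 in those 4 comparisons, against 0.020, 0.0060, 0.0039 and -0.0015 over all genes tested. Both comparisons with WT 1 to 3 share those WT arrays, and those of dKO with WT and with Ikzf4-/- share the dKO arrays.

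**Figure D1:**
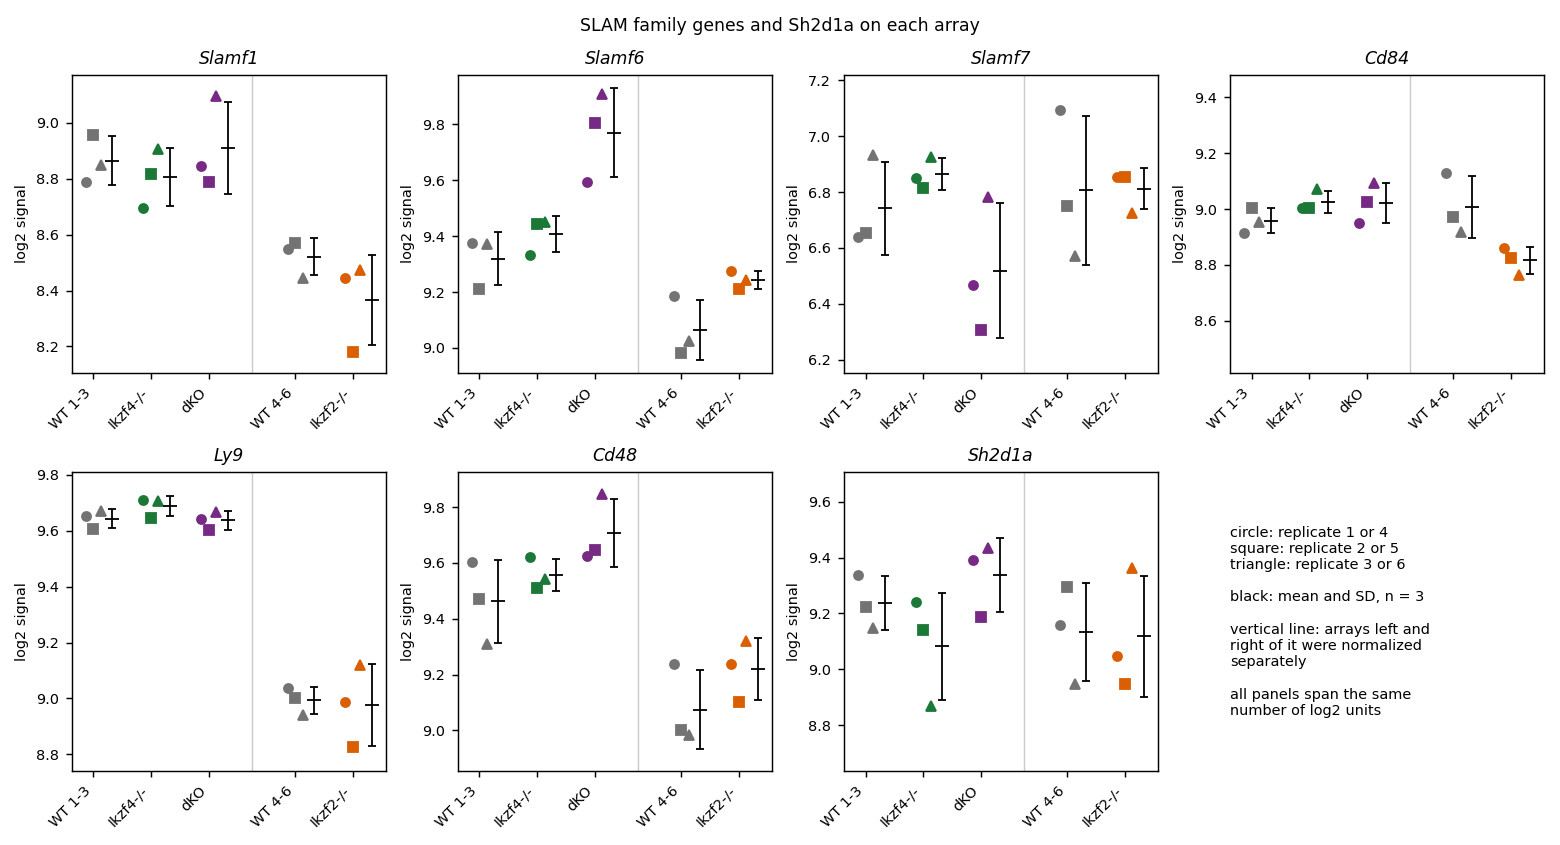
Log2 signal (vertical axis) of the 7 genes on each of the 15 arrays, by group (horizontal axis); circles are replicates 1 or 4, squares 2 or 5, triangles 3 or 6, and black bars are the mean and SD (n = 3). The vertical line separates the 2 sets of arrays, judged from numbering and values to have been normalized separately. Slamf6 lies between 9.60 and 9.91 in dKO and at most at 9.45 in the other groups.

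Among the receptors that bind themselves and recruit SAP, Slamf6 showed the widest separation. SLAMF6, also called Ly108, is known for its part in T cell contacts with B cells. Its log2 signal was 9.38, 9.21 and 9.37 in WT 1 to 3, 9.33, 9.44 and 9.45 in Ikzf4-/-, and 9.60, 9.81 and 9.91 in dKO. All 3 dKO arrays lay above all 6 other arrays of their set, and WT and Ikzf4-/- overlapped. Of all genes tested, 5.34% lay higher in dKO than on all WT arrays and 4.09% higher than on all Ikzf4-/- arrays. The share above both was not counted. The group means ± SD (n = 3 each) were 9.32 ± 0.10, 9.41 ± 0.07 and 9.77 ± 0.16. The dKO mean exceeded WT by 0.45 (SE 0.09), a 1.37-fold signal, with an unadjusted 95% interval of 0.25 to 0.65 and an adjusted p of 0.193 (limma); its unadjusted p of 0.000255 ranked 14 among 10964 genes. It exceeded Ikzf4-/- by 0.36 (SE 0.09), a 1.29-fold signal, with an adjusted p of 0.620. The difference between Ikzf4-/- and WT was 0.09 (SE 0.09, adjusted p = 1).

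In the other set, Slamf6 read 9.18, 8.98 and 9.03 in WT 4 to 6 and 9.27, 9.21 and 9.24 in Ikzf2-/-. The lowest Ikzf2-/- array stood 0.025 above the highest WT array, and 10.7% of all genes tested lay higher in this way. The mean was 0.18 higher (SE 0.09), with an adjusted p of 0.361, and 0.18 higher without Ikzf2-/- 3, the array highest in neutrophil and B cell markers. In a limma fit of this set alone the adjusted p was 0.654. The neutrophil markers had a median log2 difference of 1.88 in the same comparison with 0 of 7 past the threshold, and their part in the Slamf6 difference was not tested. The step from Ikzf4-/- to dKO exceeded the step from WT to Ikzf2-/- by 0.18 (SE 0.13, adjusted p = 0.861), so a difference between the steps was not shown. The arrays labelled dKO 2 and dKO 3, highest in Slamf6, are also 2 of the 4 arrays with a high signal of the Y-linked gene Eif2s3y (7.94 to 8.81, against 2.87 to 3.09 on the other 11). With Eif2s3y as a covariate the dKO difference from WT was 0.40. WT 3 and Ikzf4-/- 3, the other two with a high Eif2s3y signal, read 9.37 and 9.45 for Slamf6. Without the array labelled dKO 3, the difference was 0.38 and the adjusted p 0.782.

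Slamf1, the receptor after which the family is named, did not separate the groups. It read 8.79, 8.96 and 8.85 in WT 1 to 3, 8.70, 8.82 and 8.91 in Ikzf4-/-, and 8.85, 8.79 and 9.10 in dKO. In the other set it read 8.55, 8.57 and 8.45 in WT 4 to 6 and 8.45, 8.18 and 8.47 in Ikzf2-/-. The groups overlapped in every comparison. The log2 differences were -0.15 (SE 0.10, adjusted p = 0.495) in Ikzf2-/- against WT, -0.06 in Ikzf4-/- against WT, 0.04 in dKO against WT and 0.10 between dKO and Ikzf4-/- (adjusted p = 1 in these 3). Intervals for the last 3 reached from -0.28 to 0.16, from -0.18 to 0.27 and from -0.12 to 0.33. The lowest reading, 8.18, is that of Ikzf2-/- 2, without which the Ikzf2-/- difference was -0.061. Ikzf2-/- 2 is the array that also had the lowest mean of the Treg markers (9.75). Ikzf2 itself is one of these markers and read 9.145 there, and Foxp3 (10.10) and Il2ra (10.23) were also lowest on that array.

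Cd84, a receptor that T and B cells use in stable contacts, was the member with the lowest p in Ikzf2-/- cells in the fit used. It read 9.13, 8.97 and 8.92 in WT 4 to 6 and 8.86, 8.82 and 8.76 in Ikzf2-/-. All 3 Ikzf2-/- arrays lay below all 3 WT arrays, by a gap of 0.055, as they did for 5.5% of all genes tested. The mean was 8.82 ± 0.05 (SD, n = 3) against 9.01 ± 0.11 (SD, n = 3), a log2 difference of -0.19 (SE 0.08; adjusted p = 0.234, limma). Without WT 4 it was -0.13, and without Ikzf2-/- 3 it was -0.16. The unadjusted p was 0.0256 in the fit used and 0.117 in a limma fit of this set alone (adjusted p = 0.643). With each array centred on its median it was 0.0987 (limma, adjusted p = 0.394), where Slamf6 had 0.0302. The higher neutrophil marker means lie on the same Ikzf2-/- arrays, and their part in the Cd84 difference was not tested. The other set showed little spread for this gene: 8.92, 9.004 and 8.96 in WT 1 to 3, 9.004, 9.004 and 9.07 in Ikzf4-/-, and 8.95, 9.03 and 9.09 in dKO. The difference from WT was 0.07 in Ikzf4-/- and 0.06 in dKO, and dKO differed from Ikzf4-/- by -0.0036 (SE 0.08, adjusted p = 1 for each). The step from Ikzf4-/- to dKO differed from that from WT to Ikzf2-/- by 0.19 (SE 0.11, adjusted p = 0.807).

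Ly9, which encodes the receptor CD229, had the smallest spread of the 7 genes within each set. It read 9.65, 9.61 and 9.67 in WT 1 to 3, 9.71, 9.65 and 9.71 in Ikzf4-/-, and 9.64, 9.60 and 9.67 in dKO, an SD over all 9 arrays of 0.04. Ikzf4-/- differed from WT by 0.04, dKO from WT by -0.0061 and dKO from Ikzf4-/- by -0.05 (SE 0.08 each, adjusted p = 1). The interval for dKO against WT ran from -0.18 to 0.16. In the other set it read 9.04, 9.002 and 8.94 in WT 4 to 6 and 8.99, 8.83 and 9.12 in Ikzf2-/-. The Ikzf2-/- arrays lay on both sides of WT, with a mean difference of -0.016 (SE 0.08, adjusted p = 0.945).

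Slamf7 differs from the other receptors in that it does not depend on SAP; it is prominent on plasma cells and natural killer cells. Its log2 signal was 6.64, 6.65 and 6.93 in WT 1 to 3, 6.85, 6.82 and 6.93 in Ikzf4-/-, and 6.47, 6.31 and 6.78 in dKO. All 3 dKO arrays lay below all 3 Ikzf4-/- arrays, by a gap of 0.033, but overlapped with WT. Of all genes tested, 4.19% lay lower in dKO than on all Ikzf4-/- arrays. The log2 difference of dKO from Ikzf4-/- was -0.35 (SE 0.14), a 0.787-fold signal, with an adjusted p of 1 (limma). Against WT it was -0.22 (SE 0.14), and the Ikzf4-/- difference from WT was 0.12 (SE 0.14), both with an adjusted p of 1. Single arrays moved these values: dKO differed from WT by -0.12 without dKO 2, -0.13 without WT 3 and -0.36 without the array labelled dKO 3, and Ikzf4-/- differed from WT by 0.22 without WT 3 and 0.071 without WT 1. With the replicate number as a block, in a fit of the arrays of this set alone, Slamf7 had an unadjusted p of 0.0278 in dKO against WT (adjusted p = 0.529) and of 0.0036 in dKO against Ikzf4-/- (adjusted p = 0.455). In the other set Slamf7 read 7.10, 6.75 and 6.57 in WT 4 to 6 and 6.85, 6.85 and 6.73 in Ikzf2-/-. Those groups overlapped, with a difference of 0.0055 (SE 0.14, adjusted p = 0.990). Plasma cell markers (4 of 6 tested, with Sdc1 and Tnfrsf17 not tested) had array means of 5.53 to 5.76 in Ikzf4-/- and of 6.40, 5.59 and 5.76 in dKO 1, 2 and the array labelled dKO 3. Of the natural killer and CD8 T cell markers 2 of 7 were tested, with Ncr1, Klrb1c, Klrd1, Klra8 and Cd8a below the filter, and their mean lay between 6.68 and 7.20 in Ikzf4-/- and between 6.44 and 6.81 in dKO. The part of either cell type in the Slamf7 difference was not tested.

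Cd48, the ligand of CD2 and 2B4, ran closest to Slamf6. It read 9.60, 9.47 and 9.31 in WT 1 to 3, 9.62, 9.51 and 9.54 in Ikzf4-/-, and 9.62, 9.65 and 9.85 in dKO. The lowest dKO array stood 0.020 above the highest WT array and 0.0034 above the highest Ikzf4-/- array, so the dKO group only just cleared either. Of all genes tested, 5.34% cleared WT and 4.09% cleared Ikzf4-/- in this direction. The means were 9.71 ± 0.12 (SD, n = 3) for dKO and 9.46 ± 0.15 (SD, n = 3) for WT 1 to 3, a difference of 0.24 (SE 0.10, a 1.18-fold signal) with an adjusted p of 1 (limma, unadjusted p = 0.0325). Against Ikzf4-/- the difference was 0.15 (SE 0.10), and between Ikzf4-/- and WT it was 0.10 (SE 0.10), both with an adjusted p of 1. Without the array labelled dKO 3 the difference from WT was 0.17. B cells also carry CD48. WT 1, high in B cell markers, had the highest Cd48 signal of its group (9.60), and Ikzf4-/- 1, with a B cell mean of 4.47, read 9.62. A fit that holds the B cell mean as covariate gave a dKO difference from WT of 0.31. In this set only WT 1 had a high B cell mean. The part of B cells in the Cd48 difference was not tested. In the other set Cd48 read 9.24, 9.003 and 8.98 in WT 4 to 6 and 9.24, 9.10 and 9.32 in Ikzf2-/-. These groups overlapped; the difference was 0.15 (SE 0.10, adjusted p = 0.517), or 0.063 in the fit with that covariate and 0.095 without Ikzf2-/- 3, and 0.23 without WT 4.

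Sh2d1a, the gene of the adaptor SAP, did not separate any of the groups compared. It read 9.34, 9.22 and 9.15 in WT 1 to 3, 9.24, 9.14 and 8.87 in Ikzf4-/-, and 9.39, 9.19 and 9.43 in dKO. The dKO mean exceeded Ikzf4-/- by 0.25 (SE 0.13, adjusted p = 1), or by 0.15 without Ikzf4-/- 3, and WT by 0.10, while Ikzf4-/- stood at -0.15 from WT (SE 0.13 and adjusted p = 1 for both). In the other set it read 9.16, 9.30 and 8.95 in WT 4 to 6 and 9.05, 8.95 and 9.36 in Ikzf2-/-, with a difference of -0.016 (SE 0.13, adjusted p = 0.968). The interval of that difference ran from -0.30 to 0.27.

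**Figure D2:**
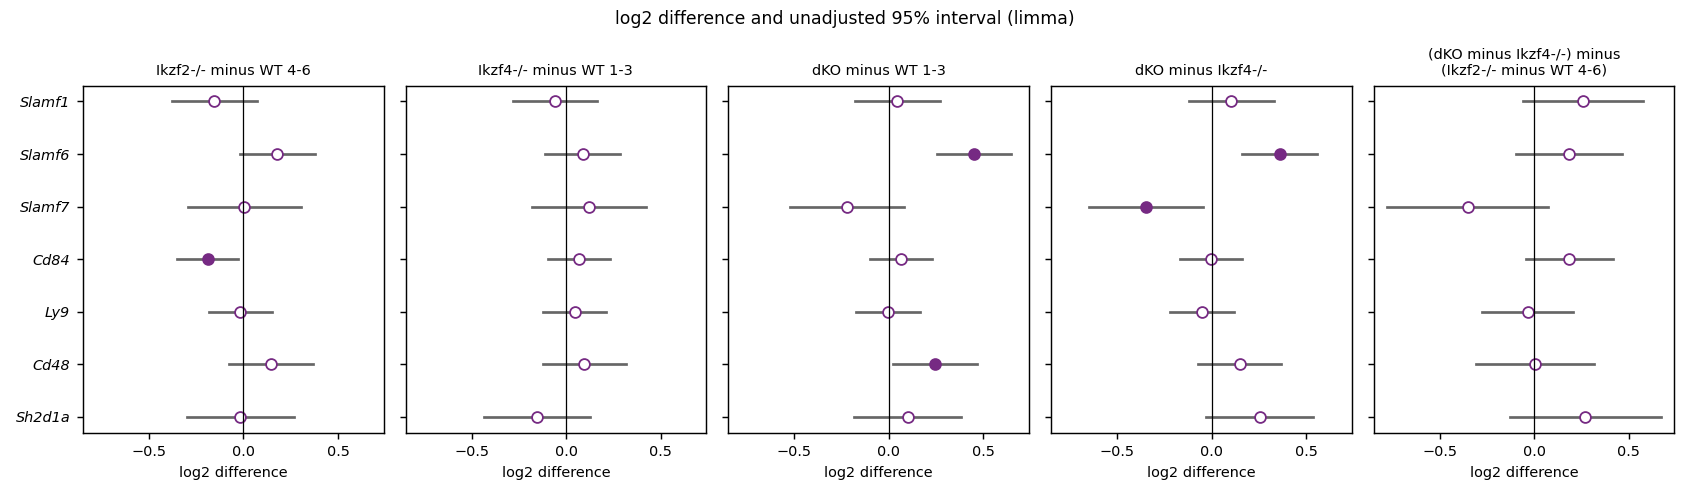
Log2 difference (horizontal axis) with its unadjusted 95% interval from limma for each of the 7 genes in the 4 comparisons and in the test of the step from Ikzf4-/- to dKO minus the step from WT to Ikzf2-/-; filled points have an unadjusted p under 0.05. Slamf6 stands at 0.45 in dKO against WT, and no point passed at an adjusted p of 0.05.

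Members were also counted by whether all arrays of a genotype lay above or below all arrays of the other. In Ikzf2-/- against WT 1 member lay higher (Slamf6) and 1 lower (Cd84), where 10.7% of all genes tested lay higher and 5.5% lower. In Ikzf4-/- against WT 0 members were apart (3.62% of all genes higher, 2.92% lower), and 1 was without WT 1 (Cd48; 16.1% of all genes in either direction). In dKO against WT 2 lay higher, Slamf6 and Cd48 (5.34% higher, 4.22% lower). In dKO against Ikzf4-/- 2 lay higher, Slamf6 and Cd48, and 1 lower, Slamf7 (4.09% higher, 4.19% lower). In counts chosen after the data were seen, leaving out the array labelled dKO 3 added Slamf7, lower, to the count against WT (19.6% of all genes in either direction) and Ly9, lower, to that against Ikzf4-/- (17.9%). Leaving out Ikzf2-/- 2 added Cd48 to the count in Ikzf2-/- (38.2%).

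**Figure D3:**
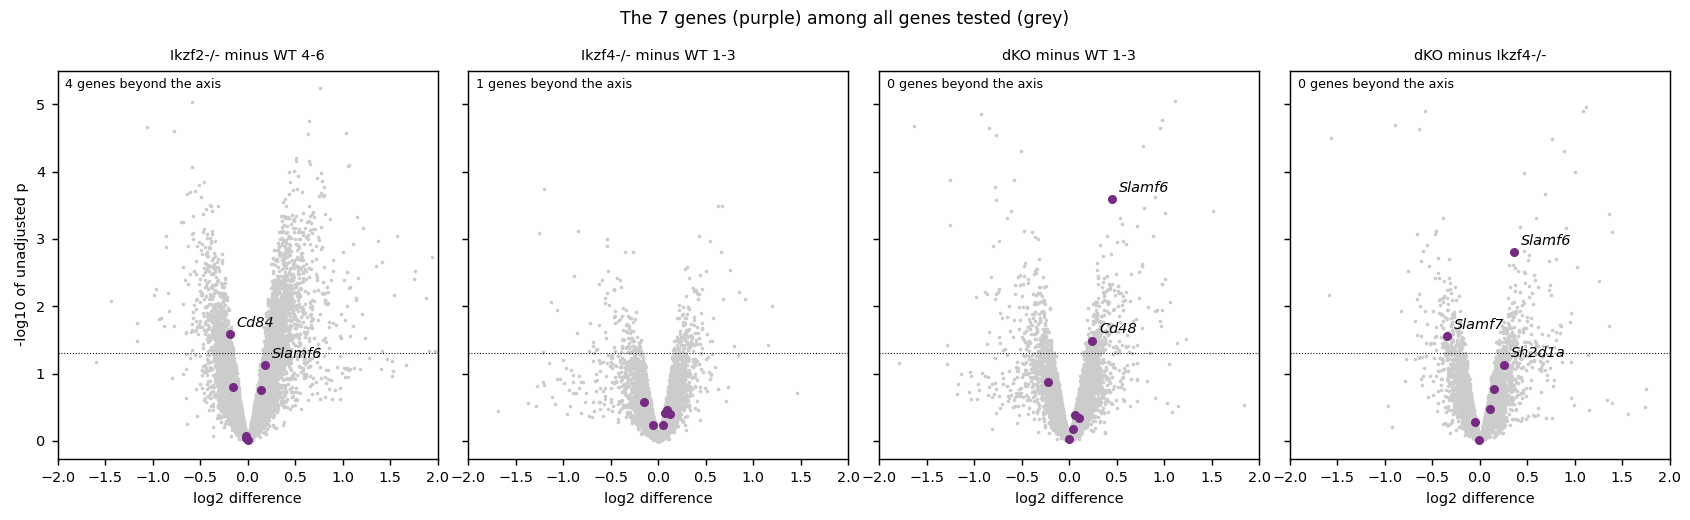
Log2 difference (horizontal axis) against -log10 of the unadjusted limma p (vertical axis) for all 10964 genes tested (grey) and the 7 genes (purple); the dotted line is an unadjusted p of 0.05. In dKO against WT Slamf6 ranks 14 by p; Cd48 also lies beyond the dotted line there, and the other 5 members lie below it.

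To see how the members ran together, each array's value was taken minus the mean of the WT arrays of its own set. Over the 15 arrays the highest Pearson r among the 21 pairs was that of Slamf6 and Cd48 (0.75), followed by Slamf1 and Cd84 (0.58), Cd48 and Sh2d1a (0.47) and Slamf1 and Ly9 (0.47). The lowest were Slamf7 with Sh2d1a (-0.24) and with Slamf6 (-0.23). These values describe the arrays, which share genotypes and sets, and the 2 genes of a pair are read from the same labelled RNA.

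**Figure D4:**
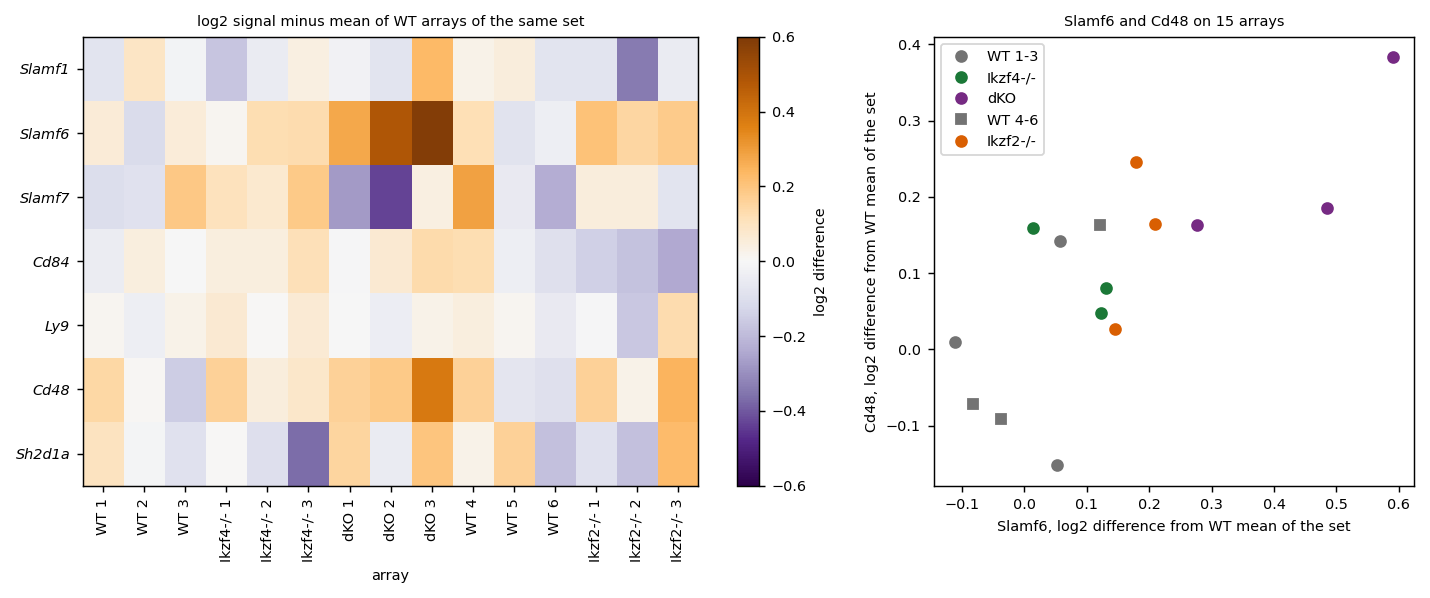
Left, log2 signal minus the mean of the WT arrays of the same set for each gene (rows) and array (columns), on a colour scale from -0.6 to 0.6; right, the same quantity for Slamf6 (horizontal axis) and Cd48 (vertical axis) on the 15 arrays. The array labelled dKO 3 is the highest for both genes, and the pair has a Pearson r of 0.75.

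Over all genes tested, the 3 most like Slamf6 across the 15 arrays were Cd28, the costimulatory receptor of T cells (r = 0.89), Podnl1 (0.88) and Csf1, the macrophage growth factor (0.85). Csf1 rose in dKO against WT by 1.12 (SE 0.16; limma, adjusted p = 0.0406) and against Ikzf4-/- by 1.08 (adjusted p = 0.0457). It passed in 11 of 29 alternative fits against WT (differences of 1.01 to 1.23, adjusted p 0.00069 to 0.187) and in 8 of 28 against Ikzf4-/- (0.98 to 1.19, adjusted p 0.00044 to 0.302), and stood at 0.71 in Ikzf2-/- against WT (adjusted p = 0.0848). Cd28 read 9.92, 10.02 and 10.04 in WT 1 to 3, 9.94, 10.12 and 10.07 in Ikzf4-/- and 10.33, 10.43 and 10.42 in dKO. This puts dKO above both groups as for Slamf6, with a difference from WT of 0.40 (SE 0.10, limma, adjusted p = 0.359). Cd28, Podnl1 and Csf1 were picked for likeness to Slamf6 with genotype differences left in. High dKO readings therefore follow in part from that choice. Most like Cd48 were Gzmb, which encodes granzyme B (0.88), Adat2 (0.87) and Slc35b3 (0.87). For Slamf1 they were Fnbp1 (0.89), Fyn, the kinase that SAP recruits (0.89), and Nrf1 (0.84). For Cd84 they were Rsrc2 (0.91), Zfp661 (0.90) and Dennd1b (0.89), and for Ly9 Vcl (0.91), Pcnp (0.90) and Trim14 (0.90). The values for Slamf7 were lower, with Cd2ap (0.81), Tmem38b (0.80) and Fam185a (0.77), and Sh2d1a was most like B4galnt4 (0.86), Dnaja1 (0.84) and Plk3 (0.83).

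The other genes of the pathway were read from lists. Of 6 further receptors, ligands and adaptors, 2 were bright enough to be tested, Cd2 and Cd244a; Slamf8, Slamf9 and the adaptor genes Sh2d1b1 and Sh2d1b2 (EAT-2 and its relative) lay below the filter. Neither passed in any comparison. Cd2, the T cell adhesion receptor that binds CD48, read 11.41, 11.40 and 11.34 in WT 4 to 6 and 11.37, 10.86 and 11.23 in Ikzf2-/-, a difference of -0.23 (SE 0.10, adjusted p = 0.284) in which Ikzf2-/- 2 is the lowest array. Cd244a, the other receptor of CD48, read 5.19, 4.76 and 4.82 in WT 1 to 3 and 4.66, 4.42 and 4.69 in dKO. The dKO arrays lay below all WT arrays, as they did for 4.22% of all genes tested. The difference was -0.34 (SE 0.13, adjusted p = 1), and the highest WT value is that of WT 1. Both group means, 4.93 in WT 1 to 3 and 4.59 in dKO, lay below the filter of log2 4.96. Cd244a was tested because it exceeded the filter in WT 4 to 6 (5.27) and Ikzf2-/- (5.24).

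Of 16 genes that carry the signal inside the cell, 14 were tested (Lck and Nfkb1 are not named by a probe set with a single symbol here), and 0 passed in any of the 4 comparisons with limma. At an unadjusted p under 0.05 the count was 1 higher and 2 lower in Ikzf2-/- against WT (10.9% of all genes higher and 5.45% lower), and 0 in the other 3. In Ikzf2-/- cells these were Nck1, an adaptor to the actin skeleton, at 0.29 (SE 0.11, adjusted p = 0.194), the protein kinase gene Prkcq at -0.29 (SE 0.10, adjusted p = 0.185) and the phospholipase gene Plcg1 at -0.31 (SE 0.14, adjusted p = 0.272). Fyn stood at -0.18 in Ikzf2-/- against WT, while Ikzf4-/- was at -0.14 and dKO at -0.0021 from WT, and dKO at 0.14 from Ikzf4-/- (adjusted p = 0.495 in the first and 1 in the others). Plcg1 read 7.90, 7.29 and 7.92 in Ikzf2-/- and 7.92, 8.12 and 8.01 in WT 4 to 6. Ikzf2-/- 2 was thus its lowest array, and also the lowest for Prkcq (9.92, 9.56 and 9.80 in Ikzf2-/-) and Fyn (9.65, 9.12 and 9.49). The median of the 14 genes was -0.02 in Ikzf2-/- against WT, -0.02 in Ikzf4-/- against WT, 0.0063 in dKO against WT and 0.0014 between dKO and Ikzf4-/-.

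Of 10 genes that mark T cell states known to need SAP, 7 were tested and 0 passed; Il21, Il4 and Zbtb16 lay below the filter. Counts at an unadjusted p under 0.05 were 1 higher in Ikzf2-/- against WT (10.9% of all genes), 0 in Ikzf4-/- against WT (1.16% of all genes higher and 1.02% lower), 2 higher in dKO against WT (2.39% of all genes) and 2 higher in dKO against Ikzf4-/- (1.79%). Maf, a transcription factor of follicular helper and IL-10 producing cells, read 7.07, 7.03 and 6.90 in WT 1 to 3, 7.11, 7.26 and 7.11 in Ikzf4-/-, and 7.52, 7.54 and 7.46 in dKO. All 3 dKO arrays lay above both other groups. Of all genes tested, 5.34% lay above WT and 4.09% above Ikzf4-/- in this way, and the share above both was not counted. The difference from WT was 0.51 (SE 0.12, adjusted p = 0.366) and from Ikzf4-/- 0.35 (adjusted p = 1). In Ikzf2-/- against WT it was 0.29 (SE 0.12, adjusted p = 0.262). Icos, the inducible costimulator, read 10.20, 10.20 and 10.05 in WT 1 to 3, 9.94, 10.20 and 10.00 in Ikzf4-/-, and 10.40, 10.49 and 10.62 in dKO. Its dKO values also lay above both groups, with differences of 0.35 from WT and 0.46 from Ikzf4-/- (SE 0.15, adjusted p = 1 for both). Bcl6, the master regulator of follicular helper cells, stood at -0.07 and its partner receptor Cxcr5 at 0.33 in dKO against WT (SE 0.28 and adjusted p = 1 for both). Gata3, Egr2 and Pdcd1 stood at 0.20, -0.06 and 0.08 there. In Ikzf2-/- against WT they stood at 0.37, -0.46 and 0.01, Bcl6 at -0.24 and Cxcr5 at 0.26. In each of these 2 comparisons 5 of the 7 genes were positive and 2 negative. The medians of the 7 genes were 0.26 in Ikzf2-/- against WT, -0.00090 in Ikzf4-/- against WT, 0.20 in dKO against WT and 0.18 between dKO and Ikzf4-/-. Over all genes tested they were 0.020, 0.0060, 0.0039 and -0.0015.

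Of 18 genes around and between the chromosome 1 members, 6 were tested (Alyref2, Cd244a, Vangl2, Ncstn, Copa and Pex19), and 0 passed. Vangl2, the neighbour of Slamf6, stood at -0.06 in dKO against WT and at -0.12 against Ikzf4-/- (SE 0.09, adjusted p = 1 for both). Alyref2 had the lowest p, at -0.47 in Ikzf4-/- against WT (SE 0.17, adjusted p = 1). The medians were -0.03, -0.04, -0.07 and -0.06 in Ikzf2-/- against WT, Ikzf4-/- against WT, dKO against WT and dKO against Ikzf4-/-.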

How the data were processed

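The authors deposited log2 signals for 35556 probe sets, made with Affymetrix Expression Console 1.3.1 and RMA per the submitters' processing notes; the labels' protocols give NuGEN amplification of 15 ng RNA. RMA narrows the differences of dim genes. The sets were taken from the numbering of the WT arrays: pairs had exactly equal values in 2286 and 34.4 probe sets on average within the sets and 0.0741 across them. Of the probe sets 21789 had 1 symbol in the platform annotation, 1621 several and 12146 none listed; 21698 symbols were updated through RefSeq. Genes were tested where any group mean exceeded log2 4.96, the median of all probe set means. limma 3.58.1 in R 4.3.3 was fitted with 5 group means over 15 arrays, adjusted by Benjamini-Hochberg over all genes, and tested on simulated data. Members and lists were chosen with earlier results of these data known. The named genes are the members, up to 4 genes of lowest p per list and comparison, and the 3 most like each member. Bcl6 and Pdcd1 were chosen after their values were seen. Deviations of arrays with the same number correlated at 0.14 to 0.30 between WT and Ikzf4-/-, 0.20 to 0.43 between Ikzf4-/- and dKO, and 0.045 to 0.17 between WT and dKO.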

Additional observations from a re-analysis of the deposited data

How the results depend on the processing

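None of the 7 genes, SLAM receptors or adaptor, passed under any of the 968 alternative values of their 35 differences; the lowest adjusted p was 0.0586, for Slamf6 in dKO against WT with array weights (range 0.0586 to 0.782). That difference ran from 0.38 to 0.58 and against Ikzf4-/- from 0.29 to 0.45. Under the replicate block (WT 1 to 3, Ikzf4-/- and dKO alone) 0 members passed, and Slamf6 had an adjusted p of 0.239 and 0.455 in these comparisons. The count of all genes passing moved more. In Ikzf2-/- against WT it ran from 0 to 409 (7 in the fit used). It was 409 without Ikzf2-/- 1 and 0 in a fit of that set alone. It ran from 0 to 21 in dKO against WT (7) and against Ikzf4-/- (3). Of the 35 differences, 25 kept their direction and 10, none above 0.15 in size, turned. Many alternatives could change only the p and not the difference. These are other filters, other estimates of the spread, fits of fewer groups, and fits without an array outside the comparison. The mean of all probe sets is another, as each member has 1. In Ikzf2-/- against WT, Slamf7 turned to -0.0079 after quantile normalization and -0.032 with array weights, Ly9 to 0.034 and Sh2d1a to 0.034 with centred medians, and Cd48 to -0.048 with all 6 WT arrays pooled. Pooling WT turned Slamf1 in Ikzf4-/- to 0.11 and Ly9 in dKO against WT to 0.32; Ly9 there was 0.0046 with array weights and 0.039 with the B cell covariate. Cd84 in dKO against Ikzf4-/- became 0.0058 (quantile) and 0.00098 (centred medians). The difference of steps for Ly9 became 0.025 (B cell covariate) and 0.037 (without WT 1 and Ikzf2-/- 3), and for Cd48 -0.042 (centred medians) and -0.024 (array weights). Leaving out each array in turn gave Slamf7 from -0.11 to 0.15, Ly9 from -0.087 to 0.060, Sh2d1a from -0.14 to 0.070 in Ikzf2-/- against WT, Slamf1 from -0.048 to 0.11, Ly9 from -0.025 to 0.011 in dKO against WT, Cd84 from -0.038 to 0.033 in dKO against Ikzf4-/-, Ly9 from -0.11 to 0.037, Cd48 from -0.079 to 0.053 in the difference of steps. The cause was not tested.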

Other observations

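Set against each other as deposited, WT 4 to 6 stood below WT 1 to 3 by a log2 difference of -0.65 for Ly9, -0.39 for Cd48, -0.34 for Slamf1, -0.26 for Slamf6 and -0.10 for Sh2d1a, and at 0.05 for Cd84 and 0.06 for Slamf7, where the median of all genes tested was -0.38. With each array centred on its median, Ly9 stood at -0.61 and all genes at -0.34. As these sets were judged to have been normalized separately, which no label states, the values are given with no test.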
